A study of Caenorhabditis elegans with 41 samples.

Results

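The 43 genes described here encode neuropeptide precursors of the nematode Caenorhabditis elegans: 27 FMRFamide-like peptide genes (flp-1 to flp-32) and 16 neuropeptide-like protein genes (nlp-1 to nlp-21). They were taken by identifier from a fixed list, out of the 20390 genes in each deposited table, and all 43 were found, had a usable value in all 23 libraries and were never listed at 0. The mRNA of whole worms was sequenced, and levels are given as FPKM, fragments per kilobase of transcript scaled to the library's mapped fragments, which corrects for transcript length. The study asked how gene expression responds to megabase-scale chromosomal duplications, and the groups differ in strain and in developmental stage.

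SP117 carries the duplication mnDp10 (X;I), a piece of the right part of X attached to chromosome I, together with the mutation unc-3(e151) in the X-linked gene of a neuronal transcription factor. By the study's description SP117 looks wild type. It was sampled as 2 libraries of mixed-stage embryos, 4 of L2-L3 larvae and 3 of young adults. BC4289 [sDp10 (IV;X)] carries a piece of chromosome IV attached to X and was sampled as L2-L3 larvae (2) and young adults (3). TY1916 carries the duplication yDp11 (X;IV), a piece of X on chromosome IV that does not recruit the dosage compensation complex. It also carries the X-linked mutations lon-2(e678) and, in the innexin gene, unc-9(e101), with further changes on chromosomes IV and V, and was sampled as embryos (3). The study describes TY1916 hermaphrodites as long and not uncoordinated (non-Unc). VC100 [unc-112(r367) V; gkDf2 X] carries an X deletion and was sampled as embryos (3). OP37 carries wgIs37, a multicopy fosmid transgene of the transcription factor gene pha-4 tagged as pha-4::TY1::EGFP::3xFLAG, with the marker unc-119(+), and its 3 libraries are labelled embryo. Embryos came from bleached gravid adults and, by the labels' growth protocol, larvae from starved L1 animals grown for a day, while the study's methods describe plated embryos. Each strain is a single line, no wild-type library is used here, and the labels do not say whether replicates were separate cultures, although the study speaks of worm collections for its replicates, so p-values measure the spread between these libraries.

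A neuropeptide precursor is cut by proprotein convertases and trimmed and amidated in dense-core vesicles, and the mature peptides are released outside the synapse and act mostly on G protein-coupled receptors. FLP peptides share a C-terminal RFamide, whereas the NLP class gathers several unrelated peptide families. In the worm these peptides are known for modulating locomotion, feeding, egg laying, sensory responses and sleep-like states. In whole-worm mRNA, fewer neurons among all cells and less RNA per neuron cannot be told apart.

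On the autosomes the members are flp-22 (F39H2.1), nlp-8 (D2005.2), nlp-12 (M01D7.5) and nlp-15 (CC4.2) on I, and flp-16 (F15D4.8), flp-27 (C25H3.5), nlp-5 (F35C11.1), nlp-11 (ZK1320.10) and nlp-18 (F33A8.2) on II. Chromosome III holds flp-14 (Y37D8A.15), flp-15 (ZK525.1), flp-24 (C24A1.1), flp-25 (K04H4.7), nlp-10 (F37A8.4) and nlp-21 (Y47D3B.2), and chromosome IV holds flp-1 (F23B2.5), flp-9 (C36H8.3), flp-10 (T06C10.4), flp-13 (F33D4.3), flp-17 (C52D10.11) and nlp-20 (F45E4.8). On V lie flp-6 (F07D3.2), flp-21 (C26F1.10), nlp-9 (E03D2.2) and nlp-13 (E03D2.1). The largest set, 18 genes, is on X: flp-2 (W07E11.3), flp-3 (W07E11.2), flp-5 (C03G5.7), flp-7 (F49E10.3), flp-8 (F31F6.4), flp-11 (K02G10.4), flp-12 (C05E11.8), flp-18 (Y48D7A.2), flp-19 (M79.4), flp-20 (E01H11.3), flp-26 (R173.4), flp-28 (W07E11.4), flp-32 (R03A10.2), nlp-1 (C01C4.1), nlp-3 (F48C11.3), nlp-6 (T23E7.4), nlp-7 (F18E9.2) and nlp-14 (D1009.4). In 8 members the annotated span overlaps another gene, so fragments in the shared stretch may have been divided between them: flp-2, flp-3 and flp-28 with W07E11.1, flp-1 with daf-10, flp-11 with tmem-135, flp-16 with romo-1, flp-19 with abl-1, and nlp-12 with emr-1.

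The 3 OP37 libraries stood apart from their stage label. Across all genes their rank correlation with L2-L3 libraries was 0.906 to 0.937 (Spearman, a description), and with the libraries labelled embryo of the other strains 0.502 to 0.704. Their summed FPKM of 13 usable germline and oocyte markers, 80.2 to 197, overlapped that of the L2-L3 larvae (105 to 162) and lay below that of the other embryo libraries (277 to 1157). OP37 is therefore set beside larvae as well as embryos, and enters no other comparison. Depth was estimated relative to SP117 embryo replicate 1, the deepest library, from genes with FPKM above 0 and under 0.6 in both libraries. The most frequent ratio of their values was taken, and the estimates ranged from 11.7% (an SP117 L2-L3 library) to 100%. VC100 replicate 1 had the highest FPKM sum of its group, 1271440 against 948190 and 949456, and comparisons with VC100 are given with and without it where it matters.

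Summed over the 43 genes, neuropeptide mRNA in SP117 was lowest in embryos, highest in larvae and lower again in adults. The sum was 257 to 517 FPKM in SP117 embryos, 271 to 556 in VC100 embryos and 915 to 1299 in TY1916 embryos. It was 3303 to 4042 in SP117 and 3246 to 3819 in BC4289 L2-L3 larvae, and 628 to 756 in SP117 and 624 to 1153 in BC4289 young adults. OP37 aside, no L2-L3 library overlapped an embryo or adult library in this sum. TY1916 embryos lay above the SP117 adults and overlapped the BC4289 adults, so the order of embryos and adults differed between strains. The 12 pan-neuronal markers (rab-3, snb-1, snt-1, unc-13, unc-18, unc-64, ric-4, unc-10, unc-104, ric-19, rgef-1 and sng-1, all of the synaptic vesicle cycle or neuronal signalling) differed in order. Their sum was 464 to 533 FPKM in SP117 embryos, 474 to 583 in SP117 larvae and 209 to 240 in SP117 adults. The ratio of both sums was 0.554 to 0.969 in SP117 embryos, 6.22 to 8.34 in larvae and 3.01 to 3.15 in adults. The sum of the markers is carried largely by 1 gene, snb-1 (synaptobrevin), which made up 51.1% to 64.2% of it in SP117 embryos, 25.7% to 40.2% in larvae and 66.2% to 69.8% in adults. Without snb-1, a choice made after seeing the data, the ratio was 1.55 to 1.98 in SP117 embryos, 8.38 to 14.0 in larvae and 9.21 to 9.97 in adults. Embryos thus lay below both later stages either way, whereas the gap between larvae and adults was present only with snb-1 in the sum. In BC4289 the ratio without snb-1 was 10.8 to 11.1 in larvae and 9.46 to 12.8 in adults.

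**Figure D1:**
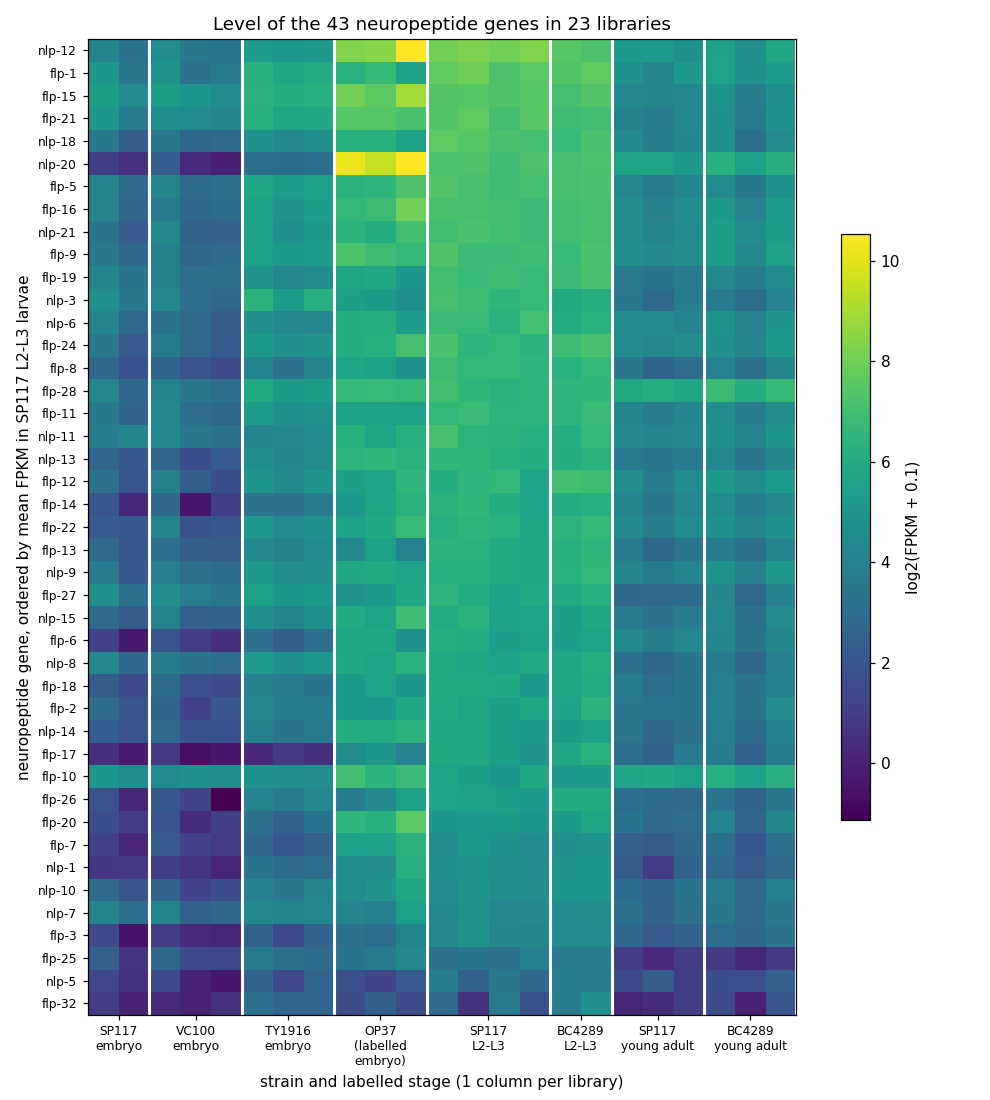
Level of each neuropeptide gene (rows, ordered by mean FPKM in SP117 L2-L3 larvae) in each of the 23 libraries (columns, grouped by strain and labelled stage), as log2(FPKM + 0.1). The larval columns are brighter than the embryo and adult columns for nearly every gene, while flp-10 and flp-28 stay bright in adults and nlp-20 is brightest in OP37.

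Which precursor was most abundant depended on the stage. In SP117 embryos the 3 highest means were those of flp-15, flp-10 and flp-21. flp-15, whose peptides are ligands of the receptor NPR-3, was at 43.03 and 22.3 FPKM in the 2 embryo libraries. flp-10, whose peptide acts with that of flp-17 on the receptor EGL-6 to inhibit egg laying, was at 31.6 and 25.8 FPKM. flp-21, a ligand of NPR-1 known from aggregation behaviour, was at 32.5 and 12.4 FPKM. These ranges overlap, so their order in embryos is not resolved, and none of the 42 neighbouring pairs in the ranking of SP117 embryos was free of overlap. In SP117 larvae nlp-12, the cholecystokinin-like precursor of the stretch-sensing neuron DVA, ranked first with 263, 301, 269 and 318 FPKM. It was followed by flp-1, made in the AVK interneurons and known from locomotion, with 206, 253, 155 and 187 FPKM. flp-15 came next with 171, 178, 161 and 182 FPKM, a range inside that of flp-1. In SP117 young adults flp-28 ranked first with 62.3, 70.7 and 56.8 FPKM, flp-10 second with 51.7, 56.3 and 43.6 FPKM and nlp-20 next with 48.4, 52.0 and 35.2 FPKM. The lowest adult library of flp-28 lay just above the highest of flp-10, and flp-10 and nlp-20 overlapped. By the mean, first place was shared across strains for embryos (flp-15 also in VC100 and TY1916) and adults (flp-28 also in BC4289), whereas in BC4289 larvae flp-1 ranked first. In each of these VC100, TY1916 and BC4289 groups the first gene overlapped the second, so these first places are not resolved. In BC4289 larvae flp-1 was at 163 and 200 FPKM and nlp-12 at 184 and 154 FPKM.

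From SP117 embryos to L2-L3 larvae, 41 of the 43 genes rose and 0 fell, where 28.8% of the 13532 genes tested rose and 40.2% fell (limma on log2(FPKM + 0.1), Benjamini-Hochberg adjusted p under 0.05 over all genes tested). The median log2 ratio of the members was 3.57 (range 0.65 to 6.37), beside -0.32 over all genes. In 42 members every larval library lay above both embryo libraries, as for 31.5% of all genes tested. The exception was flp-32, at 1.79 and 0.937 FPKM in embryos and 7.42, 1.41, 12.4 and 3.27 FPKM in larvae (log2 ratio 1.74, SE 0.811, adjusted p = 0.0899). The other member that did not pass was flp-10, whose larval values of 50.2, 42.5, 32.7 and 57.6 FPKM lay above its embryo values (log2 ratio 0.65, SE 0.26, adjusted p = 0.0558).

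The largest rise was that of nlp-20, from 2.04 and 1.37 FPKM in embryos to 152, 161, 121 and 155 FPKM in larvae (log2 ratio 6.37, SE 0.228, adjusted p = 3.02e-06). flp-17, the BAG neuron precursor that shares the receptor EGL-6 with flp-10, rose from 1.28 and 0.740 FPKM to 59.3, 57.4, 41.2 and 30.8 FPKM (log2 ratio 5.40, SE 0.352, adjusted p = 2.3e-05). flp-10 and flp-17 thus had nearly opposite places in this comparison, among the smallest and the largest ratios. flp-6 went from 2.29 and 0.713 FPKM to 69.7, 66.0, 41.5 and 47.4 FPKM (log2 ratio 5.30, SE 0.443, adjusted p = 5e-05). flp-14 went from 3.87 and 1.03 FPKM to 82.1, 96.4, 68.8 and 49.4 FPKM (log2 ratio 5.09, SE 0.496, adjusted p = 8.58e-05). For nlp-12 the embryo values were 17.7 and 9.98 FPKM, against the larval values given above (log2 ratio 4.42, SE 0.248, adjusted p = 1.35e-05). Its overlapping gene emr-1 was at 187 to 258 FPKM in embryos and 48.2 to 86.8 FPKM in larvae, the opposite order.

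Neuronal markers changed less and less uniformly than the precursors over the same step. Of the 12 pan-neuronal markers 7 rose and 1 (snb-1) fell, with a median log2 ratio of 1.01. Among 20 genes of peptide processing and release, 8 rose and 4 fell (median 0.53). The 2 largest called rises were of pgal-1 and egl-21. pgal-1, the second enzyme of amidation, was at 3.01 to 4.49 FPKM in embryos and 81.1 to 123 in larvae (log2 ratio 4.79, adjusted p = 1.07e-05). egl-21, the carboxypeptidase E, was at 12 to 23.9 FPKM in embryos and 158 to 230 in larvae (log2 ratio 3.48, adjusted p = 5.12e-05). Falling most were hid-1, a factor for dense-core vesicle cargo sorting (log2 ratio -2.33), and the carboxypeptidase gene cpd-2 (-2.12). Of 62 peptide receptor genes tested, out of 96 listed, 38 rose and 2 fell (median 1.51). The receptor genes that fell were npr-11 and egl-6, the latter encoding the receptor for the peptides of flp-10 and flp-17, with 3.68 to 3.91 FPKM in embryos and 0.345 to 1.42 in larvae (log2 ratio -1.99, adjusted p = 0.0143). Among 60 tested of the 66 further flp and nlp genes that are not members, 49 rose and 0 fell (median 2.71). Markers of other tissues moved as well: all 7 body wall muscle markers rose (median 2.58), while 10 of 13 germline and oocyte markers fell and 1 rose (median -2.15). The part of these shifts in cell makeup in the members' rise was not tested.

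**Figure D2:**
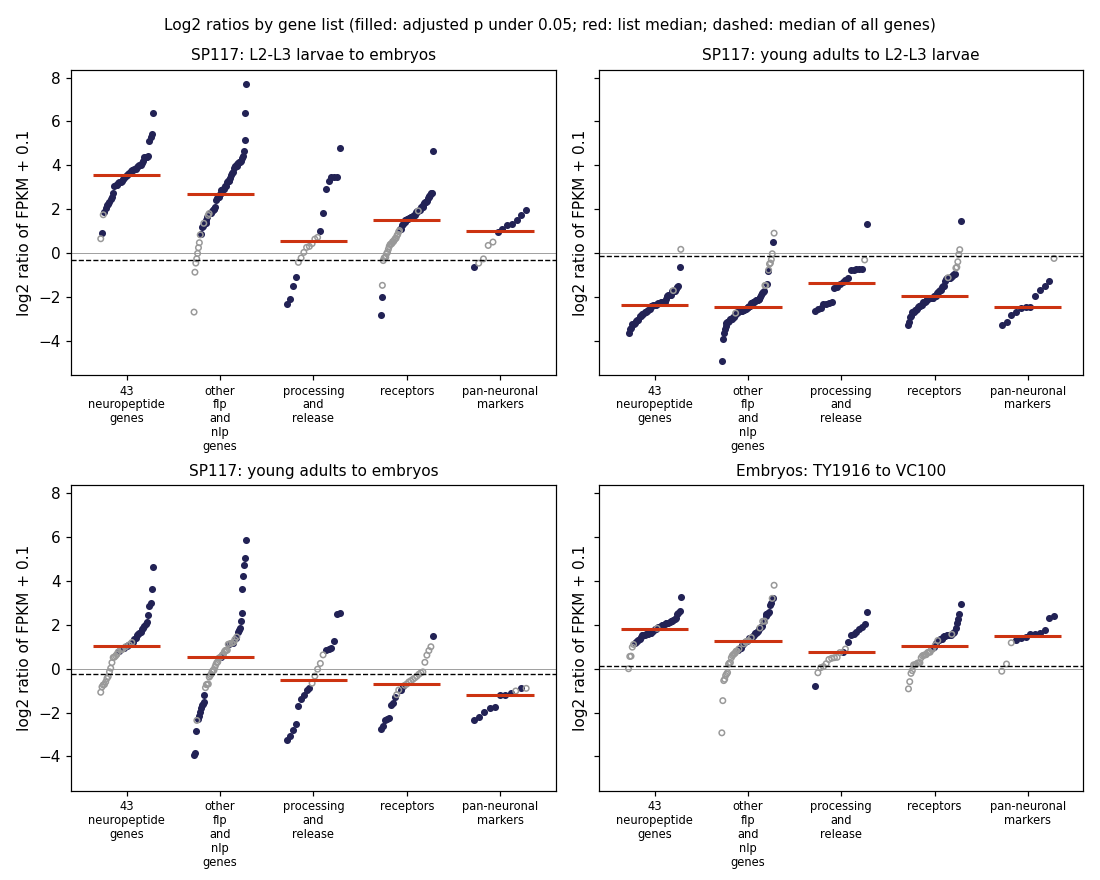
Log2 ratios of single genes in 4 comparisons, by gene list (filled points passed the adjusted test, open points did not; red line, list median; dashed line, median of all genes tested). In SP117 larvae against embryos the members' median of 3.57 lies above the neuronal markers' 1.01, in adults against larvae the medians are -2.37 and -2.46, and in TY1916 against VC100 embryos 1.82 and 1.51.

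From L2-L3 larvae to young adults the direction turned in both strains. In SP117, 41 of the 43 genes fell and 0 rose, where 40.1% of the 13593 genes tested fell and 36.7% rose. The median log2 ratio was -2.37 (range -3.63 to 0.17) beside -0.15 over all genes, a 5.19-fold lower level in adults. In 41 members every adult library lay below every larval library, as for 39.5% of all genes. In BC4289, 41 genes fell and 1 rose, where 37.3% of 13722 genes fell and 36.7% rose, with a median log2 ratio of -2.08 (range -3.09 to 0.84) beside -0.14. Here too 41 members had every adult library below both larval libraries, against 44.5% of all genes. The ratios in SP117 and BC4289, which share no library, had a rank correlation of 0.727 over the 43 members (Spearman, a description across genes of 1 family).

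The 5 largest declines in SP117 were those of flp-8, nlp-3, flp-21, flp-19 and nlp-18, of which flp-8, nlp-3 and flp-19 are X-linked. flp-8 fell from 117, 103.8, 102 and 94.6 FPKM in larvae to 11.3, 6.21 and 8.15 FPKM in adults (log2 ratio -3.63, SE 0.201, adjusted p = 4.13e-06). nlp-3, made in the egg-laying motor neuron HSN and known to stimulate egg laying, fell from 137, 122, 97.8 and 105 FPKM to 11.1, 7.12 and 14.0 FPKM (log2 ratio -3.45, SE 0.238, adjusted p = 1.03e-05). Both are on the X segment that is duplicated in SP117. flp-21 fell from 172, 202, 130 and 184 FPKM to 16.0, 12.7 and 19.1 FPKM (log2 ratio -3.43, SE 0.195, adjusted p = 4.71e-06). flp-19 fell from 125, 111, 121 and 109 FPKM to 12.9, 10.5 and 12.9 FPKM (log2 ratio -3.26, SE 0.121, adjusted p = 8.59e-07). nlp-18 was at 199, 183, 144 and 134 FPKM in larvae and 20.8, 13.5 and 18.8 FPKM in adults (log2 ratio -3.22, SE 0.201, adjusted p = 6.82e-06). In each of these 5 genes the larval and adult libraries were far apart, 9.31- to 12.4-fold by the fitted ratio.

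In BC4289 the largest declines were partly of other genes. flp-32 was at 13.8 and 26.9 FPKM in larvae and 2.99, 0.854 and 3.89 FPKM in adults (log2 ratio -3.09, SE 0.700, adjusted p = 0.011), a call that was lost without larval replicate 2 (adjusted p = 0.0795). flp-25 fell from 12.7 and 13.01 FPKM to 1.73, 1.06 and 1.66 FPKM (log2 ratio -3.06, SE 0.286, adjusted p = 0.000651). flp-5 fell from 140 and 147 FPKM to 22.9, 12.1 and 27.95 FPKM (log2 ratio -2.85, SE 0.365, adjusted p = 0.00169). For flp-26 the values were 65.1 and 61.5 FPKM in larvae and 10.9, 6.18 and 11.6 FPKM in adults (log2 ratio -2.76, SE 0.301, adjusted p = 0.00103). nlp-18 was at 109 and 144 FPKM and then 29.5, 9.28 and 22.8 FPKM (log2 ratio -2.76, SE 0.513, adjusted p = 0.00569). Young adult replicate 2 was the lowest BC4289 adult library for the summed members, 624 FPKM against 1114 and 1153.

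flp-10 did not share the decline, and flp-28 fell little in SP117 and was not called in BC4289. flp-10 was at 51.7, 56.3 and 43.6 FPKM in SP117 adults, overlapping its larval range (log2 ratio 0.17, SE 0.205, adjusted p = 0.478). In BC4289 it rose from 33.9 and 37.0 FPKM in larvae to 76.3, 44.3 and 75.6 FPKM in adults (log2 ratio 0.84, SE 0.270, adjusted p = 0.0357). That call held without adult replicate 2, but leaving out any other BC4289 library took the adjusted p to between 0.0950 and 0.144. It was also lost after quantile scaling and with the replicate number as a block. flp-28, which lies inside the span of W07E11.1, fell in SP117 from 127, 95.4, 82.7 and 94.2 FPKM to 62.3, 70.7 and 56.8 FPKM (log2 ratio -0.64, SE 0.163, adjusted p = 0.00741). In BC4289 it was at 94.0 and 97.0 FPKM in larvae and 113, 67.7 and 103 FPKM in adults (log2 ratio -0.05, SE 0.236, adjusted p = 0.861). The host gene W07E11.1 was at 13.2 to 26.9 FPKM in SP117 larvae and 18.3 to 23.9 FPKM in SP117 adults, below flp-28 at both stages. The remaining SP117 member that did not pass was flp-32, with 0.967, 1.24 and 1.93 FPKM in adults against its larval range of 1.41 to 12.4 FPKM (log2 ratio -1.71, SE 0.693, adjusted p = 0.052).

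**Figure D3:**
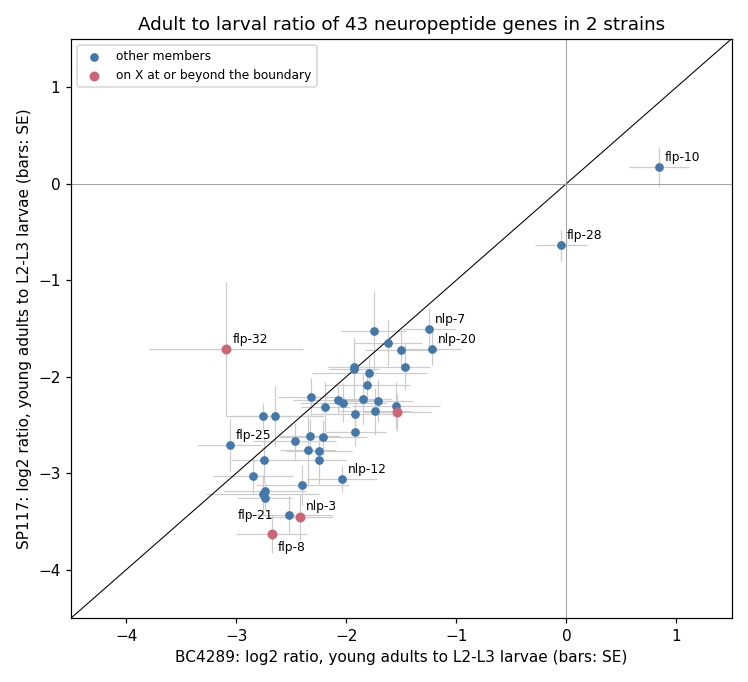
Log2 ratio of young adults to L2-L3 larvae for each of the 43 genes in BC4289 (x axis) and SP117 (y axis), with standard errors as bars and the line of equal ratios. Nearly all genes lie in the lower left quadrant, flp-10 and flp-28 lie near or above 0 apart from the rest, and 35 of the 43 points are below the line.

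The stage difference itself was then compared between strains. Of the 43 members, 0 passed the test of the difference (limma interaction term, adjusted p under 0.05), where 0.0291% of 13740 genes passed, and 4 had an unadjusted p under 0.05, where 7.07% of all genes did. The members' median difference was -0.41 on the log2 scale, beside 0.06 over all genes, and 35 of 43 were negative, that is, a lower ratio of adults to larvae in SP117 than in BC4289. The most negative were nlp-3 (-1.03, SE 0.407, adjusted p = 0.669) and nlp-12 (-1.02, SE 0.331, adjusted p = 0.589). The most positive was flp-32 (1.38, SE 1.09, adjusted p = 0.849).

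Neuronal markers fell together with the precursors in adults. Of the 12 pan-neuronal markers, 11 fell in SP117 (median log2 ratio -2.46) and 12 in BC4289 (median -2.24), close to the members' medians. Processing and release genes fell in 18 of 20 cases in SP117 (median -1.37) and 17 in BC4289 (median -1.53), and in each strain 1 rose. In SP117 the 2 largest declines were of pghm-1, the first enzyme of amidation, with 110 to 147 FPKM in larvae and 18.3 to 22.7 in adults (log2 ratio -2.63, adjusted p = 3.05e-06), and of egl-3, the main proprotein convertase, with 173 to 259 FPKM and then 33.0 to 41.0 (-2.55, adjusted p = 7.55e-06). The gene that rose was eipr-1 in both strains, a factor of dense-core vesicle maturation (log2 ratio 1.31 in SP117 and 0.79 in BC4289). Receptor genes fell in 48 of 55 tested in SP117 (median -1.97) and in 35 of 46 in BC4289 (median -1.79). egl-6 was the single receptor gene that rose in SP117, from 0.345 to 1.42 FPKM in larvae to 2.25 to 3.05 in adults (log2 ratio 1.44, adjusted p = 0.0179). Among further flp and nlp genes, 48 of 58 fell and 1 rose in SP117 (median -2.46), and 45 of 59 fell in BC4289 (median -2.12). All 13 germline and oocyte markers rose in both strains, by a median log2 ratio of 4.38 in SP117 and 4.23 in BC4289, and their summed FPKM went from 105 to 132 in SP117 larvae to 3507 to 3813 in adults. The part of this gain in germline RNA in the members' lower FPKM was not tested. Young adult libraries also carry a different series prefix in their deposited names from the embryo and larval ones, whose meaning is not stated and which cannot be told apart from stage.

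Set directly against SP117 embryos, SP117 young adults had higher levels of 22 of the 43 genes and lower levels of 0, where 30.7% of 13586 genes rose and 40.6% fell. The median log2 ratio was 1.02 (range -1.07 to 4.66) beside -0.23 over all genes. nlp-20 again stood first, with 48.4, 52.0 and 35.2 FPKM in adults against 2.04 and 1.37 in embryos (log2 ratio 4.66, SE 0.267, adjusted p = 3.13e-05). It was followed by flp-6, at 20.5, 13.5 and 19.2 FPKM in adults (log2 ratio 3.65, SE 0.485, adjusted p = 0.000723), and by flp-17, at 8.15, 5.96 and 12.5 FPKM (2.99, SE 0.418, adjusted p = 0.000911). flp-14 was at 17.1, 11.04 and 19.01 FPKM in adults (2.86, SE 0.554, adjusted p = 0.00382), and flp-28, at 18.998 and 6.72 FPKM in embryos, was 5.53-fold higher in adults (log2 ratio 2.47, SE 0.410, adjusted p = 0.00196). At the other end 8 members had their lowest SP117 mean in adults rather than embryos: flp-15, flp-19, flp-21, flp-25, flp-27, nlp-3, nlp-7 and nlp-8. The lowest ratios were those of flp-27 (-1.07, SE 0.434, adjusted p = 0.064) and flp-25 (-0.83, SE 0.580, adjusted p = 0.239).

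The neuronal markers went the other way in this comparison. Of 11 tested, 0 rose and 9 fell (median log2 ratio -1.22), while 11 of 13 germline and oocyte markers rose (median 1.81). Among processing and release genes 6 rose and 9 fell (median -0.50), and among 27 receptor genes tested 1 rose and 10 fell (median -0.70). Further flp and nlp genes were split, 15 higher and 11 lower of 56 (median 0.51). The members' count was sensitive to the embryo libraries: without embryo replicate 2, 17 members were higher and 7 lower, and without embryo replicate 1, 31 were higher.

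**Figure D4:**
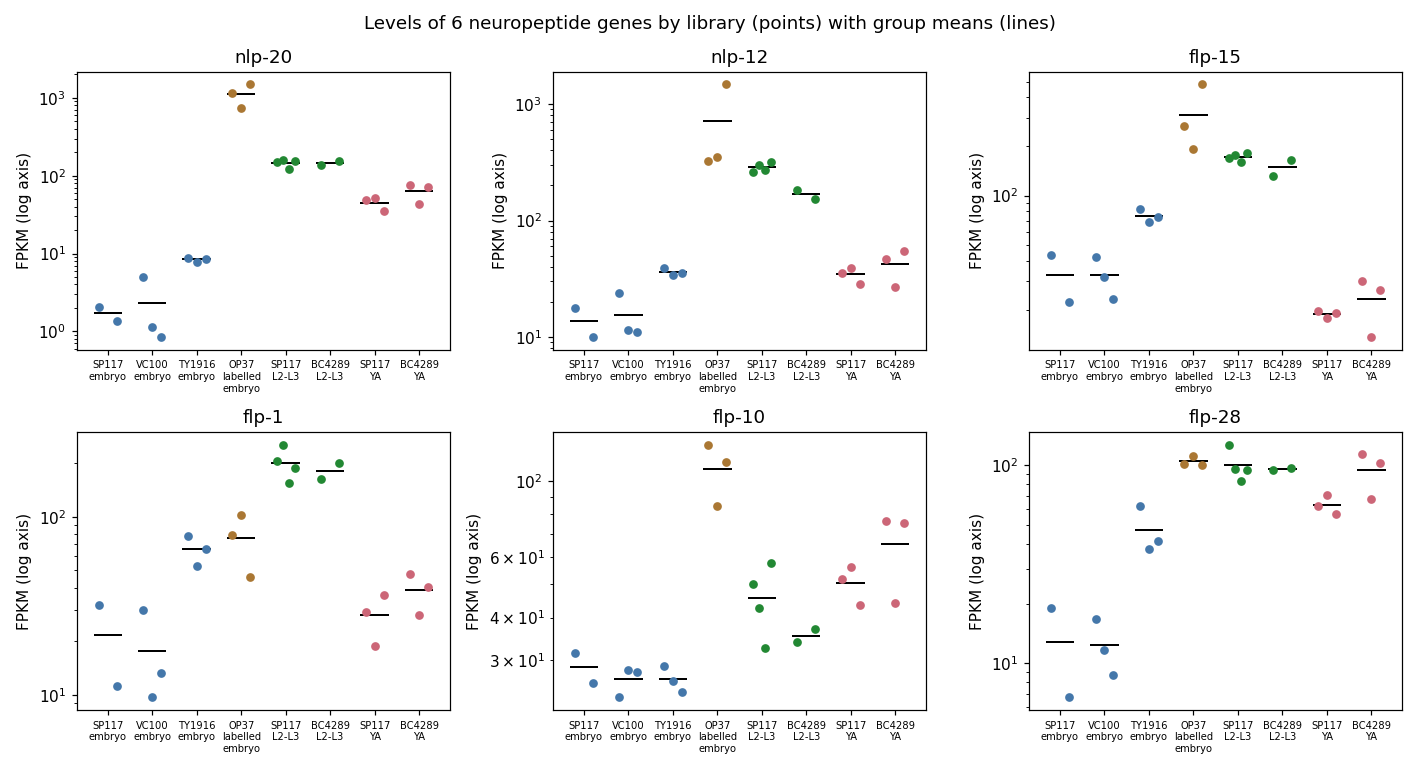
FPKM on a log axis of 6 neuropeptide genes in each library (points) with group means (lines), by strain and labelled stage (YA, young adult). nlp-20, nlp-12, flp-15 and flp-1 peak in larvae or OP37 and are lower in adults, while flp-10 and flp-28 in adults reach or overlap their larval values in at least 1 strain.

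Among embryos, TY1916 differed from VC100 across the family. Of the 43 genes, 37 were higher in TY1916 and 0 lower, where 19.1% of 13118 genes were higher and 8.76% lower. The median log2 ratio was 1.82 (range 0.00 to 3.28), a 3.52-fold difference, beside 0.11 over all genes. The largest difference was that of flp-26, at 17.1, 12.8 and 20.03 FPKM in TY1916 and 4.10, 2.42 and 0.360 FPKM in VC100 (log2 ratio 3.28, SE 0.751, adjusted p = 0.0238). That call was lost without any 1 of the TY1916 libraries (adjusted p of 0.0607 to 0.107) and with the replicate number as a block (0.0613). flp-32 was at 9.68, 6.28 and 6.41 FPKM against 1.09, 0.904 and 1.34 FPKM (log2 ratio 2.63, SE 0.322, adjusted p = 0.00419). nlp-3 was at 82.0, 38.3 and 73.0 FPKM against 19.9, 8.08 and 6.87 FPKM (log2 ratio 2.55, SE 0.460, adjusted p = 0.0128), and was not called without TY1916 replicate 1 (0.0769). In these 3 genes the strains did not overlap.

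nlp-1, a precursor of the olfactory neuron AWC, was at 10.46, 7.57 and 8.22 FPKM in TY1916 and 2.04, 1.501 and 0.977 FPKM in VC100 (log2 ratio 2.50, SE 0.341, adjusted p = 0.00602). nlp-13 was at 26.3, 18.1 and 24.7 FPKM against 6.41, 3.08 and 4.58 FPKM (log2 ratio 2.31, SE 0.319, adjusted p = 0.0062). The 6 members that did not pass included flp-10, at 28.9, 26.1 and 24.3 FPKM against 23.4, 28.2 and 27.7 FPKM (log2 ratio 0.00, SE 0.195, adjusted p = 0.995). nlp-11 (0.56, SE 0.322, adjusted p = 0.199) and flp-17 (0.57, SE 0.514, adjusted p = 0.395) also had ratios well under the median.

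The members' difference between TY1916 and VC100 came with differences in markers of several tissues. Of 12 pan-neuronal markers 9 were higher in TY1916 and 0 lower (median log2 ratio 1.51), and their summed FPKM was 649 to 859 in TY1916 against 438 to 756 in VC100. The ratio of the members' sum to that of the neuronal markers was 1.41 to 1.57 in TY1916 and 0.563 to 0.735 in VC100, but snb-1, which had a log2 ratio of -0.11 here, made up 59.8% to 85.2% of the marker sum in VC100. Without snb-1 the ratio was 2.57 to 2.97 in TY1916 and 1.45 to 4.98 in VC100, and the strains overlapped. That overlap rested on VC100 replicate 1, which had the value of 4.98. The remaining VC100 libraries lay below every TY1916 library. All 7 muscle markers were higher (median 2.06, summed FPKM 2449 to 3464 against 911 to 1020), and 6 of 13 germline and oocyte markers were lower (median -1.05, summed FPKM 277 to 680 against 875 to 1157). Processing and release genes were higher in 9 of 20 cases and lower in 1 (median 0.76), led by unc-31, the vesicle priming factor CAPS, at 6.98 to 10.5 FPKM against 0.563 to 2.41 (log2 ratio 2.58, adjusted p = 0.0179), and egl-21, at 47.0 to 69.4 FPKM against 11.3 to 17.6 (2.04, adjusted p = 0.00419). Receptor genes were higher in 19 of 42 tested (median 1.03), and further flp and nlp genes in 28 of 56 (median 1.27). Both strains were collected as mixed-stage embryos, and the part of stage makeup in these differences was not tested. The count of members called depended on single libraries: it was 3 without TY1916 replicate 1 (flp-32, nlp-1 and nlp-13), 18 without TY1916 replicate 2, 19 without TY1916 replicate 3, 19 without VC100 replicate 2, 20 without VC100 replicate 3 and 41 without VC100 replicate 1. In each of these 6 leave-outs the members' median log2 ratio was between 1.56 and 2.13. After quantile scaling 28 members were called higher, and the genes called overall split 1346 higher to 1494 lower in place of 2511 to 1149.

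No difference between SP117 and VC100 embryos was detected in these genes. Of 42 members tested (flp-17 fell below a mean of 1 FPKM), 0 passed, where 0.0650% of 12307 genes did, and 0 had an unadjusted p under 0.05, where 5.14% of all genes did. The median log2 ratio was -0.02 (range -0.77 to 0.74). The standard errors of these ratios reached 1.04, so that differences of the size seen here were not detectable with 2 and 3 libraries.

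Between SP117 and BC4289 of the same stage, 0 members passed in larvae, where 0.0389% of 12870 genes did, and 0 in adults, where 0.109% of 12827 genes did. In simulated data with the spread of these libraries, a log2 change of 1 was called in 0 of 200 changed genes for larvae. For adults it was called in 74 of 200, so differences of that size or less could go uncalled here. An unadjusted p under 0.05 was found for 6 members in larvae (7.50% of all genes) and 3 in adults (7.89%). In larvae the libraries did not overlap for 4 genes higher in SP117 (flp-21, nlp-3, nlp-6 and nlp-12), against 7.13% of all genes, and for 6 lower ones (flp-12, flp-26, flp-32, nlp-1, nlp-9 and nlp-10), against 12%. nlp-12, at 184 and 154 FPKM in BC4289 larvae, had a log2 ratio of 0.77 (SE 0.166, adjusted p = 0.385). In adults the median log2 ratio was -0.37 (range -0.80 to 0.22) and 41 of 43 genes had a negative ratio. Without BC4289 young adult replicate 2, which was low in the members as given above, 6 members were lower in SP117 (flp-9, flp-19, flp-20, flp-27, flp-28 and nlp-21) and the median was -0.68. Leaving out a library that is low in these same genes favours such calls.

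Of the 18 X-linked members, 4 lie at or beyond 12.12 Mb, the part of X that is read for extra copies in SP117: nlp-3 at X 13177784 to 13178385, flp-8 at X 14881349 to 14882231, flp-32 at X 15433728 to 15435285 and nlp-6 at X 17662375 to 17664146 (WS220). Copy number was not measured here. In embryos the median log2 ratio of SP117 to VC100 was 0.61 over the 558 tested genes of that part of X and 0.06 over the 1307 X genes before it. In larvae, SP117 to BC4289, the medians were 0.54 and -0.05, and in adults 0.01 and -0.06.

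nlp-3 and nlp-6 were close to or above the median of their neighbours in embryos and larvae. nlp-3 was at 25.8 and 11.7 FPKM in SP117 embryos and 19.9, 8.08 and 6.87 FPKM in VC100 embryos, a log2 ratio of 0.74 (SE 0.559) or 0.68 above the median of X genes before 12.12 Mb. In larvae it was at 137, 122, 97.8 and 105 FPKM in SP117 and 62.2 and 71.5 FPKM in BC4289, a log2 ratio of 0.78 (SE 0.193) or 0.82 above that median, with no overlap. nlp-6 was at 17.6 and 7.19 FPKM in SP117 embryos and 10.2, 7.34 and 4.85 FPKM in VC100 embryos (log2 ratio 0.65, SE 0.497, 0.59 above the median). In larvae nlp-6 was at 113, 109, 82.9 and 132 FPKM in SP117 and 66.3 and 79.7 FPKM in BC4289 (log2 ratio 0.56, SE 0.220, 0.61 above the median), again with no overlap. These are descriptions, and neither gene passed the test across all genes (adjusted p of 0.483 and 0.638 in larvae).

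flp-8 and flp-32 had lower ratios than nlp-3 and nlp-6 in both stages, but the embryo values did not separate the 4 genes. The embryo standard errors of all 4 genes ran from 0.494 to 0.561, and each gene overlapped VC100. flp-8 was at 6.96 and 3.37 FPKM in SP117 embryos and 6.06, 3.53 and 2.90 FPKM in VC100 embryos (log2 ratio 0.28, SE 0.494). In larvae SP117 overlapped the 80.4 and 101 FPKM of BC4289 (0.21, SE 0.176). These flp-8 ratios lay 0.23 and 0.26 above the medians of X genes used for nlp-3. In embryos flp-32 had a log2 ratio of 0.22 (SE 0.561), 0.16 above that median. flp-32 was lower in all 4 SP117 larval libraries (7.42, 1.41, 12.4 and 3.27 FPKM) than in the BC4289 ones (13.8 and 26.9 FPKM), with a log2 ratio of -2.05 (SE 0.801, adjusted p = 0.638). On the log2(FPKM + 0.1) scale it was also the member with the widest spread between SP117 larvae (SD 1.34, next nlp-5 with 0.60). In young adults all 4 genes had ratios under 0: -0.25 (SE 0.338) for nlp-3, -0.27 (SE 0.272) for nlp-6, -0.75 (SE 0.326) for flp-8 and -0.67 (SE 0.599) for flp-32. The adult ratios of the 14 other X-linked members ran from -0.72 to -0.23 (median -0.44) and those of the 25 autosomal members from -0.80 to 0.22 (median -0.37), so the 4 genes lay among the rest of the family.

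Over the 4 genes, the median deviation from the X genes before 12.12 Mb was 0.41 in embryos, 0.43 in larvae and -0.41 in adults, where all genes of that part of X differed from the genes before it by 0.56, 0.59 and 0.07. The 14 other X-linked members had median log2 ratios of 0.05 in embryos and -0.09 in larvae. In TY1916 against VC100 embryos, where the 4 genes had a median log2 ratio of 2.19, the other 14 X-linked members were at 1.81 and the 25 autosomal members at 1.70, with both parts of X near each other over all genes (0.57 and 0.64). TY1916 is not a normal-copy reference for this part of X, because the study states that the genes of yDp11 also lie in mnDp10. Which of the 4 genes yDp11 includes was not determined here.

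**Figure D5:**
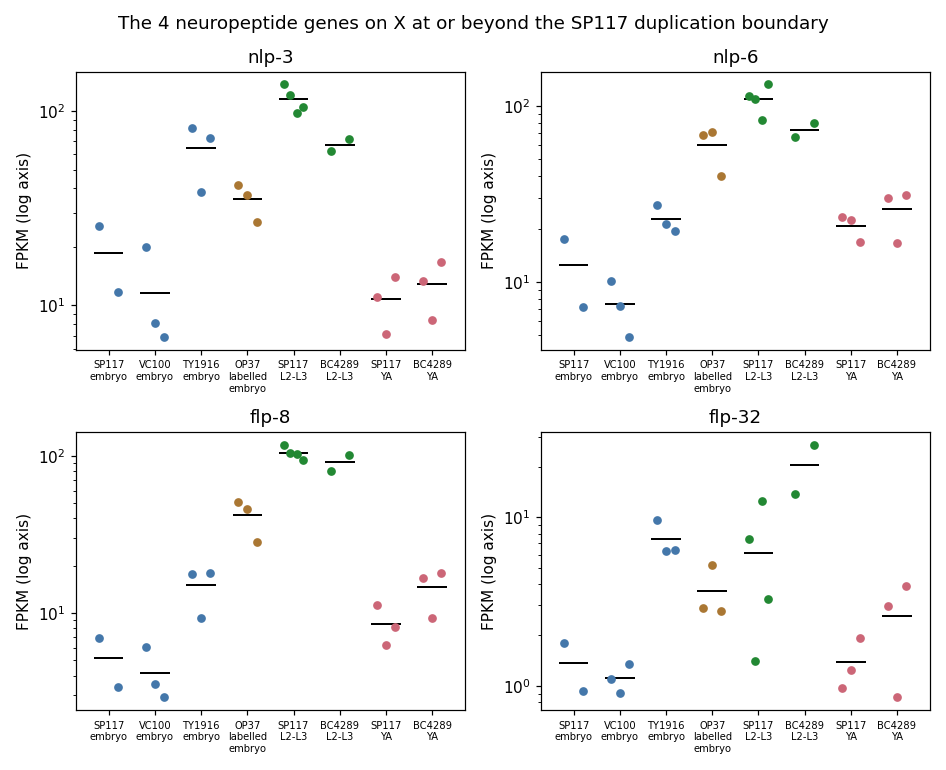
FPKM on a log axis of the 4 neuropeptide genes on X at or beyond 12.12 Mb in each library (points) with group means (lines). In L2-L3 larvae the SP117 points of nlp-3 and nlp-6 all lie above the BC4289 points, those of flp-8 overlap and those of flp-32 all lie below, and in young adults the strains overlap for all 4 genes.

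OP37 was compared with the 6 larval libraries of SP117 and BC4289, to which its profile was closest. Of the 43 genes, 4 were higher in OP37 and 9 lower, where 3.71% of 12895 genes were higher and 7.03% lower, with a median log2 ratio of -0.39 beside -0.01 over all genes. On the TPM scale the median of all genes was 0.63 and the members split 15 higher to 4 lower, with a median of 0.25. All genes called split 478 higher to 907 lower in FPKM and 4037 to 374 in TPM. The direction for the family therefore rested on the scaling, and the count on single libraries: it was 8 without BC4289 larval replicate 1, 6 without BC4289 larval replicate 2 and 19 without OP37 replicate 3.

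nlp-20 stood out, at 1162, 732 and 1486 FPKM in OP37 and 121 to 161 FPKM in the 6 larval libraries (log2 ratio 2.89, SE 0.241, adjusted p = 0.000305). It was the most abundant member in OP37. flp-20, a precursor of the touch receptor neurons, was at 92.5, 78.1 and 187 FPKM against 31.5 to 52.9 FPKM (log2 ratio 1.5, SE 0.284, adjusted p = 0.0118), and was not called without BC4289 larval replicate 1 (0.057). flp-10 was at 128, 84.5 and 114 FPKM against 32.7 to 57.6 FPKM (log2 ratio 1.43, SE 0.234, adjusted p = 0.00667). flp-7 was at 43.8, 47.3 and 82.5 FPKM against 23.2 to 35.5 FPKM (log2 ratio 0.97, SE 0.254, adjusted p = 0.0385), a call that many of the alternatives below did not keep. The OP37 libraries lay above the larval ones in all 4 genes.

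The largest of the 9 declines was that of nlp-5, at 3.17, 2.41 and 4.63 FPKM in OP37 and 5.64 to 13.7 FPKM in larvae (log2 ratio -1.68, SE 0.330, adjusted p = 0.0137). flp-13, a sleep-promoting precursor of the neuron ALA, was at 21.3, 43.6 and 16.6 FPKM against 57.0 to 93.6 FPKM (log2 ratio -1.64, SE 0.307, adjusted p = 0.0111). flp-19 was at 52.1, 59.1 and 31.6 FPKM against 109 to 142 FPKM (log2 ratio -1.39, SE 0.231, adjusted p = 0.00695). flp-1 was at 79.3, 102 and 46.1 FPKM against 155 to 253 FPKM (-1.39, SE 0.277, adjusted p = 0.0144). nlp-3 was at 41.6, 37.2 and 26.8 FPKM against 62.2 to 137 FPKM (-1.33, SE 0.211, adjusted p = 0.00589). In all 5 the OP37 libraries lay below every larval library. The call of nlp-5 was lost without either BC4289 larval library or OP37 replicate 1 (adjusted p of 0.0533 to 0.0584), that of flp-13 without BC4289 larval replicate 2 or OP37 replicate 1 (0.0519 to 0.0569), and that of flp-1 without BC4289 larval replicate 2 (0.0712) and on the TPM scale (0.0775). OP37 replicate 3 had the largest sum over the members, 6357 FPKM against 3590 and 4047, and nlp-12 was at 1471 FPKM in it against 325 and 351 FPKM in the others (log2 ratio to larvae 1.33, SE 0.433, adjusted p = 0.0815).

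The OP37 differences were not shared by the neuronal marker list or by the peptide machinery as lists. Of 12 pan-neuronal markers 1 was higher (unc-104, the kinesin of synaptic vesicle precursors, log2 ratio 1.31, adjusted p = 0.00528) and 0 lower (median 0.55). Processing and release genes were higher in 2 of 20 cases (median 0.24), and 0 of 63 receptor genes passed (median 0.06). Among 59 further flp and nlp genes, 8 were higher and 16 lower (median -0.30). Against VC100 embryos, the stage of its own label, OP37 had 41 of 43 members higher and 0 lower, where 28% of 13469 genes were higher and 38.2% lower, with a median log2 ratio of 3.20 beside -0.43. The largest was nlp-20, at 5.01, 1.13 and 0.842 FPKM in VC100 (log2 ratio 9.22, SE 0.628, adjusted p = 1.14e-05). Next came flp-20 (5.65, SE 0.502, adjusted p = 4.45e-05), nlp-12 (5.24, SE 0.614, adjusted p = 0.000178), flp-17 (4.64, SE 0.490, adjusted p = 0.000105) and flp-14 (4.58, SE 0.742, adjusted p = 0.000912). This comparison shares the VC100 libraries with that of TY1916 and the OP37 libraries with that against larvae.

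Scaling shifted all genes together, because the FPKM sums differ between stages. The median log2 ratio of all genes in SP117 larvae against embryos was -0.32 in FPKM, -0.90 in TPM and 0.16 after median centring, and the genes called split 3899 higher to 5443 lower, 2812 to 6742 and 4998 to 4191. The members had 41, 40 and 43 higher and 0 lower on these scales. In SP117 adults against larvae the median of all genes was -0.15 in FPKM and 0.16 in TPM, and 41 and 40 members were lower. In BC4289 it was -0.14 in FPKM, with 5036 genes higher and 5112 lower, and 0.40 in TPM, with 6133 higher and 3188 lower, and 41 and 38 members were lower. In SP117 adults against embryos the members split 22 higher to 0 lower in FPKM, 19 to 2 in TPM and 32 to 0 after median centring.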

How the data were processed

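The mRNA of whole worms was sequenced in 23 libraries of 5 strains, and the other 18 samples of the series, of DNA, were not analysed here. Per the submitters' processing notes and the methods of the study, the authors aligned reads to the WS220 genome with HISAT2 2.2.1 and made the deposited FPKM values with Cufflinks 2.2.1 with strand taken into account; the notes also list HTSeq 0.13.5. The deposited TPM values sum to the same total in every library, and how the authors made them is not given in the sources used here. No read counts were used, so depth is known only relatively and limits low values most.

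Groups came from the sample labels. Ratios were fitted with limma 3.58.1 in R 4.3.3 (lmFit, eBayes with trend) on log2(FPKM + 0.1). Genes whose FPKM averaged under 1 in the libraries of a comparison were left out of it. The fits gave two-sided p-values, adjusted by Benjamini-Hochberg over all genes tested, with a threshold of 0.05. The pseudocount makes a ratio understate the change of low genes. Only the groups compared entered each fit. Library values are given for the members on X at or beyond 12.12 Mb, the 3 with the highest mean FPKM in each SP117 stage and up to 5 called members with the largest ratio in each direction of a comparison; of the other lists, at most the 2 largest called changes in each direction are named. Members that did not pass a test, flp-10 and flp-28 in adults, nlp-12 in OP37, the genes that overlap members and those that turned on a left-out library were named after their values were seen. The 43 members and the gene lists were chosen with earlier results of these data known. Gene names were matched through RefSeq (19880 of 20390 identifiers, all 43 members). Alternatives were other pseudocounts, filters and scalings, 1 fit of all libraries, a replicate block and leaving out each library. Scripts were tested on simulated data. Tables were made with Python 3.11.15, numpy 2.4.6 and pandas 2.3.3, and figures with matplotlib 3.10.9.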

Additional observations from a re-analysis of the deposited data

Results flagged for a closer look

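Among the 43 genes, 2 had a library far from the other 3 in SP117 L2-L3 larvae, the single group of 4 libraries; chance alone puts about 1 in 20 genes there. flp-3, which lies inside the span of W07E11.1, was at 31.3 FPKM in replicate 2, the shallowest library, and at 18.7, 18.8 and 20.4 FPKM in the others. flp-18, whose peptides are ligands of the receptor NPR-1, was at 34.3 FPKM in replicate 4 and at 58.8, 62.1 and 63.7 FPKM in the others.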

How the results depend on the processing

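Among the calls of single named members none changed sign under an alternative run. The members' median in OP37 against larvae turned positive on the TPM scale, and the medians or splits of all genes turned under some scalings, as given above. The count of members called in SP117 adults against larvae was 41 to 42 when single libraries were left out. For SP117 adults against embryos the count turned on which embryo library was left out, as given above. There, in SP117 larvae against embryos and in BC4289 adults against larvae, leaving out 1 of 2 libraries leaves a group with 1. For TY1916 against VC100 embryos the count of 37 ranged from 3 to 41 without single libraries. For SP117 against BC4289 young adults it ranged from 0 to 6, and for OP37 against larvae from 6 to 19 around 13. The median deviation of the 4 X-linked genes ranged from 0.02 to 0.76 in embryos, 0.31 to 0.56 in larvae and -0.60 to -0.17 in adults, and was -0.21 in adults with a mean FPKM of at least 5. The cause of these shifts was not tested. With the replicate number as a block, 23 members were called in TY1916 against VC100 and 20 in OP37 against larvae. In the check of the pairing, the correlations between same-numbered libraries ran from -0.264 to 0.237. They were positive for every number in SP117 adults against embryos (0.046 and 0.078) and BC4289 adults against larvae (0.073 and 0.138). The same held for SP117 against BC4289 young adults (0.041, 0.234 and 0.058), where differently numbered libraries reached 0.203. The numbers were not taken to pair samples, and a replicate block was run as an alternative. Of single named genes, 588 values kept their call and 32 lost it, mostly flp-7 in OP37 and flp-10 in BC4289. Depth is known only relatively. Among the members, flp-32 carried the widest standard error in every comparison that included L2-L3 larvae. In TY1916 against VC100 embryos its standard error was 0.322, and the widest was that of flp-26 (0.751).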
